A study of Mus musculus with 12 samples.

Results

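The genes described are the costimulatory and checkpoint receptors and the tumor necrosis factor (TNF) superfamily receptors and ligands among the genes that differed between tdTomato- and tdTomato+ group-2 innate lymphoid cells (ILC2s) of the lung. Members were chosen by symbol. A listed gene belonged to the group if its symbol began with Tnfrsf or Tnfsf, or if it was *Ctla4*, *Icos*, *Cd28*, *Pdcd1*, *Havcr2*, *Klrg1*, *Cd96* or *Cd226*. The rule found 10 genes among the 3439 listed. All cells came from TIGIT-Cre-ERT2:Rosa26-LSL-tdTomato mice given papain, a protease used as an airway allergen, together with tamoxifen. In these mice Cre is active only where *Tigit* is transcribed and tamoxifen is present, so tdTomato records past *Tigit* expression in a cell. Both sorted populations came from mice of this genotype. The labels name 4 RNA-seq libraries of each population. Which of them entered the comparison is not stated in the sources used here, and neither is the age of the mice or whether cells of several mice were pooled. Per the study's methods the mice were male and each library began with a very small number of sorted cells.

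CD28 family receptors, among them ICOS, CTLA-4 and PD-1, sit on lymphocytes and raise or restrain activation when they bind B7 family ligands on a neighboring cell. TNF superfamily ligands bind trimeric receptors that signal through TRAF adaptors to NF-kB or, where the receptor holds a death domain, toward apoptosis. ILC2s lack an antigen receptor, and such contact receptors, together with the alarmin receptor ST2, are known regulators of their survival and cytokine output.

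Every listed member was in the table of genes lower in tdTomato+ ILC2s, which held 10 of them, and the table of higher genes held 0. The CD28 family was represented by *Icos*, *Pdcd1* and *Ctla4*, the TNF receptors by *Tnfrsf18*, *Tnfrsf1b* and *Tnfrsf25*, and the TNF ligands by *Tnfsf10* and *Tnfsf11*. *Klrg1*, a lectin-like inhibitory receptor, and *Cd226*, an activating receptor that shares the ligand CD155 with TIGIT, completed the group. Of all listed genes, 84.5% were in the lower table, so most listed genes of any kind share this direction and nothing particular to the members is read from it. A gene was listed only if it passed the thresholds of the comparison, and the lowest average level in the tables was a log2 CPM of 5.00. In bulk libraries, fewer cells that express a gene and less of its RNA per cell cannot be told apart. Counts are also scaled to the whole library. The study reports that non-coding transcripts, such as major satellite repeats, outweighed protein-coding ones in tdTomato+ ILC2s. A coding gene can therefore be lower as a share of the library, and the part of this in the listing was not tested.

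Of the 8 receptors named singly, 5 were listed as lower and *Cd28*, *Cd96* and *Havcr2* were absent from both tables. *Cd28* encodes the founding costimulatory receptor of its family, *Cd96* a further receptor for CD155, and *Havcr2* the checkpoint receptor TIM-3. The GENCODE annotation holds 32 protein-coding genes with the Tnfrsf or Tnfsf prefix, of which 5 (15.6%) were listed as lower and 27 in neither table. By comparison, 13.2% of all annotated protein-coding genes were listed as lower and 2.31% as higher. Thus the share of the TNF superfamily was near that of all annotated genes, expressed in these cells or not. It was 3 of 20 receptors (15.0%) and 2 of 12 ligands (16.7%). Among the singly named receptors the share was 62.5%, but these were picked with earlier results of the same data known, and nothing is read from it. Unlisted TNF receptors included *Tnfrsf4* (OX40), *Tnfrsf9* (4-1BB), *Tnfrsf1a* (the death domain receptor for TNF) and *Tnfrsf10b* (the receptor for TRAIL). An unlisted gene may have been too low or may not have differed, and the tables do not separate these.

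**Figure D1:**
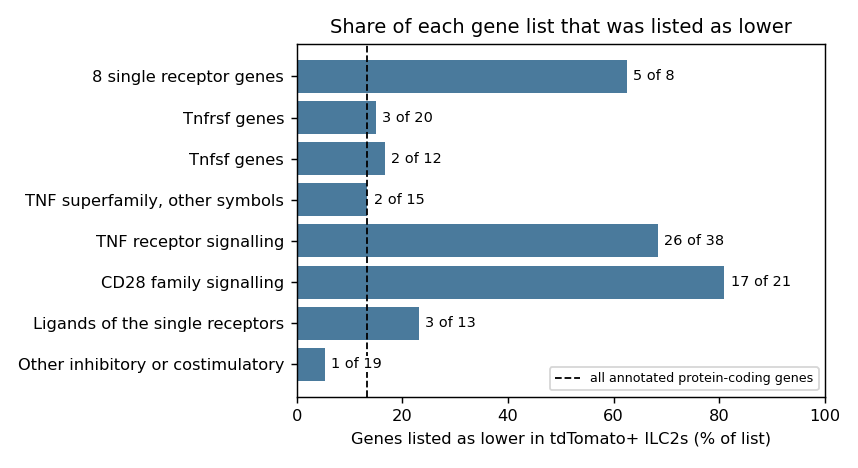
Share of each gene list that was listed as lower in tdTomato+ ILC2s, in percent of the list (bars, with counts beside them). The dashed line marks the 13.2% of all annotated protein-coding genes, expressed in these cells or not. The Tnfrsf and Tnfsf bars end close to the line. The other lists, among them both signalling lists with 26 of 38 and 17 of 21 genes, were chosen with earlier results of these data known, so their bars are a description.

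The level available for each gene is an average log2 CPM, that is, counts scaled to a common library size (CPM) on a log scale, taken over the libraries of both populations. It therefore tells how abundant a transcript was in the experiment as a whole and does not show the level in either population. No value of a single library and no spread accompanies it, so the order of genes is given without a test. It is not corrected for transcript length, so this order is one of reads and not of transcript numbers. Over the 10 members the median was 6.17, against 6.39 for all 2906 lower genes and 5.57 for the 533 higher genes. The members ranged from 5.11 to 7.21, and 5 lay above and 5 below the median of lower genes.

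Within the CD28 family, *Icos*, the costimulatory receptor that binds ICOS ligand, had the highest average log2 CPM of all members at 7.21, or 148 CPM. It exceeded 77.4% of the lower genes. *Pdcd1*, which encodes the inhibitory receptor PD-1, had an average log2 CPM of 6.48. *Ctla4*, the inhibitory receptor for CD80 and CD86, had 5.52, or 46.0 CPM. The span from *Ctla4* to *Icos* was 1.68 on the log2 scale. Of this family, *Ctla4* was thus nearest to the lowest level listed.

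The 3 TNF receptors lay close together in average log2 CPM. *Tnfrsf18*, which encodes the costimulatory receptor GITR, had 5.87. *Tnfrsf1b*, the TNF receptor without a death domain (TNFR2), had 5.84, and *Tnfrsf25*, the death domain receptor DR3 for the cytokine TL1A, had 5.76. They differed by at most 0.11 on the log2 scale, and all were in the lower part of the table, above 23.0% to 28.2% of the lower genes.

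The pair of TNF ligands lay further apart. *Tnfsf10*, which encodes the death ligand TRAIL, was second among the members at 6.55. *Tnfsf11*, which encodes RANKL, known for its part in osteoclast and lymph node development, was the lowest member at 5.11 and exceeded only 2.55% of the lower genes. The distance between them was 1.45 on the log2 scale, and *Tnfsf11* stood close to the lowest level listed, 5.00. Neither the receptor of *Tnfsf10*, *Tnfrsf10b*, nor that of *Tnfsf11*, *Tnfrsf11a*, was listed, and the ligand of *Tnfrsf25*, *Tnfsf15*, was not listed either.

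*Klrg1*, whose product binds E-cadherin, and *Cd226* had nearly the same average log2 CPM, 6.47 each. Together with *Pdcd1* they formed a tight group in which neighbors differed by at most 0.0076 on the log2 scale, and no order within it is claimed. For KLRG1 protein, and for Thy1, ST2 and FAS, the study reports similar levels on tdTomato- and tdTomato+ ILC2s.

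**Figure D2:**
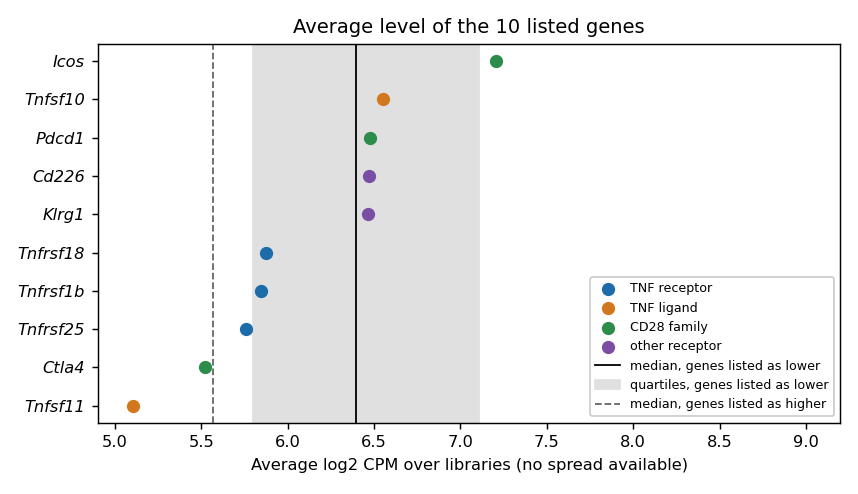
Average log2 CPM over libraries of the 10 listed genes (points, colored by role) beside the median and quartiles of genes listed as lower (black line and grey band) and the median of genes listed as higher (dashed). *Icos* stands highest at 7.21, and *Tnfsf11* lowest at 5.11.

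CPM rises with transcript length, and the values above are therefore an order of reads. For an order of levels between genes, CPM was divided by the length of all exons. By this measure *Klrg1* came first with 62.6 CPM per kb, although its CPM was below that of *Icos* and *Tnfsf10*. *Pdcd1* followed with 46.1 CPM per kb, *Icos* with 43.0 and *Tnfrsf18* with 38.4. *Tnfrsf18* thus stood apart from the other TNF receptors, since *Tnfrsf25* had 23.8 CPM per kb and *Tnfrsf1b* 15.1, the lowest value of the group. *Tnfrsf18* was 2.55 times as high as *Tnfrsf1b* per kb, whereas their CPM differed by a factor of 1.02.

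The remaining members took places in the lower part of this order. *Ctla4* had 19.7 CPM per kb, *Cd226* 18.1, *Tnfsf10* 17.8 and *Tnfsf11* 15.4. The ligands, far apart in CPM, differed by a factor of 1.16 per kb, because the exons of *Tnfsf10* span 5.27 kb and those of *Tnfsf11* 2.24 kb. *Icos* and *Pdcd1* were higher than *Ctla4* per kb by factors of 2.18 and 2.34.

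The members were short genes. Their exons had a median length of 2.30 kb, against 5.19 kb for lower genes and 10.5 kb for higher genes, and 9 of 10 were shorter than the median of lower genes. Per kb of exon, 9 of 10 members lay above the median of lower genes, 15.4 CPM per kb, although *Tnfsf11* did so by a margin smaller than its rounding. With the length of the longest transcript in its place, a choice made after seeing the data, 6 of 10 lay above that median, which was then 21.9 CPM per kb. Because the tables have a limit on CPM, a short gene could be listed only at a higher level per kb than a long one, so these counts carry that limit with them.

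**Figure D3:**
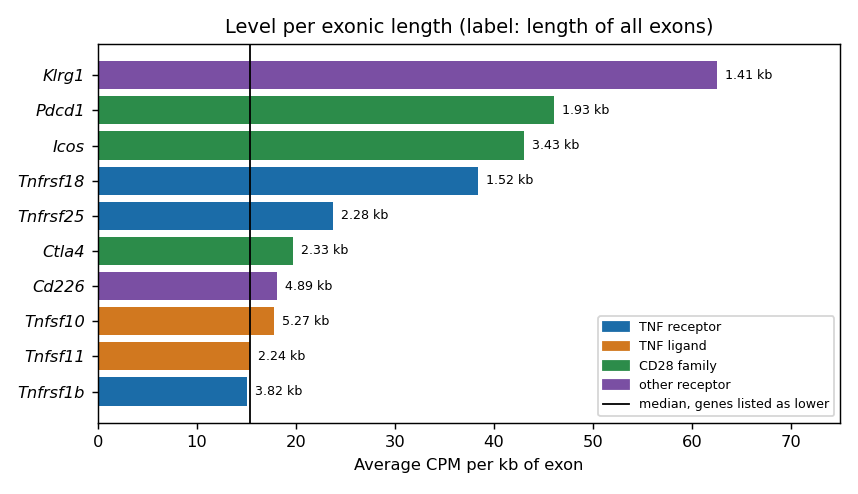
Average CPM per kb of exon for each member (bars from 0, colored by role), with the summed exon length at the end of each bar. The line marks the median of genes listed as lower, 15.4 CPM per kb. *Klrg1*, *Pdcd1*, *Icos* and *Tnfrsf18* have 38.4 CPM per kb or more, and the other members 23.8 or less.

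In the GRCm38 assembly, *Ctla4* (60887000 to 60915832) and *Icos* (60977927 to 61000320) lie side by side on the plus strand of chromosome 1 with 62.1 kb between them. *Cd28* precedes *Ctla4* at a distance of 114 kb, so in this cluster of 3 family genes both genes farther along were listed and *Cd28* was not. *Pdcd1* lies elsewhere on the same chromosome, on the opposite strand (94038305 to 94052553). *Cd226* is on the plus strand of chromosome 18 (89176967 to 89272229). All 3 TNF receptors lie on chromosome 4. There *Tnfrsf18* (156026164 to 156028895) follows *Tnfrsf4* at a distance of 9.55 kb, and *Tnfrsf1b* (145213463 to 145246870) is separated from *Tnfrsf8* by 20.3 kb, while neither *Tnfrsf4* nor *Tnfrsf8* was listed. *Tnfrsf25* (152115934 to 152120119) is flanked within 0.53 kb by *Plekhg5*, which was not listed, and within 0.21 kb by *Espn* on the opposite strand, which was listed as lower. Whether the counting used strand is not given in the sources used here.

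The remaining members lie apart from each other. *Klrg1* is on chromosome 6 (122270596 to 122282882, minus strand), *Tnfsf10* on chromosome 3 (27317028 to 27342427, plus strand) and *Tnfsf11* on chromosome 14 (78277445 to 78308043, minus strand). Of the 20 nearest protein-coding genes on either side of the 10 members, 6 (30.0%) were listed as lower, 1 as higher and 13 in neither table. By comparison, 13.2% of all annotated protein-coding genes were listed as lower and 2.31% as higher. Among the 6 are *Ctla4* and *Icos* as neighbors of each other, and without them 4 of 18 (22.2%) were listed as lower. These shares were not tested.

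Promoter sequence offers a property that the rule did not use. RefSeq windows of GRCm38.p6, each with 250 bases before and 50 after an annotated start, were found for 7 of the 10 members, with 8 windows because *Tnfrsf25* has a pair of starts. *Icos*, *Klrg1* and *Cd226* had no entry. The following stretches of 250 bases before the start are shown for the members whose stretch holds no annotated exon, the start of *Ctla4* being one inside its annotated gene, to let the sparse CpG pairs of *Pdcd1* be seen beside the denser ones of *Tnfrsf1b*. Capitals mark each CpG pair and, in *Tnfsf11*, also the letters TTTATA.

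Ctla4 (chr1:60908775-60909024, plus strand): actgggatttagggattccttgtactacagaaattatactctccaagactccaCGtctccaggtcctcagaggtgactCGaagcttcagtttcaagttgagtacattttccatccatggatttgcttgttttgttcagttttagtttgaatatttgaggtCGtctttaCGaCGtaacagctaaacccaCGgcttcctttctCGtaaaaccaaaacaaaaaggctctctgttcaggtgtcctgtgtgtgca
Pdcd1 (chr1:94052554-94052803, minus strand): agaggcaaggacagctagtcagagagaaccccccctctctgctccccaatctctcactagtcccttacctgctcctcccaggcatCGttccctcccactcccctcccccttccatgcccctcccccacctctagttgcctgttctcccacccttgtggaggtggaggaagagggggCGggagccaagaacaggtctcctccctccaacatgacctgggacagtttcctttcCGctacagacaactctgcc
Tnfrsf1b (chr4:145246871-145247120, minus strand): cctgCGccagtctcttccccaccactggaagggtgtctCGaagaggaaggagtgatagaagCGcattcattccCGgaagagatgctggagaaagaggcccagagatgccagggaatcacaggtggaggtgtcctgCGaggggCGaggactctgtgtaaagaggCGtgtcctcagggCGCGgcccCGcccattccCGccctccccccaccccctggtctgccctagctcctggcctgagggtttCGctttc
Tnfsf11 (chr14:78308044-78308293, minus strand): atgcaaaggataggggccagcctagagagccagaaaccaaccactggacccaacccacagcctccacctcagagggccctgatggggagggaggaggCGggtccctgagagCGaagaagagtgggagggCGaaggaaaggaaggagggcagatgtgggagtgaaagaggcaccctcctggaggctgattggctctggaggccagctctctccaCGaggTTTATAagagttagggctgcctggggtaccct

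Over the whole windows, members held between 4 and 15 CpG pairs, with a median of 7.5. All promoter windows in the RefSeq table had a median of 7 CpG pairs, and the 3028 windows of genes listed as lower had a median of 23. Of those windows of lower genes, 71.4% held more CpG pairs than any member window. *Tnfrsf18* had 4 pairs, *Pdcd1* 5, *Tnfsf10* 6, *Tnfsf11* 7 and *Ctla4* 8, whereas *Tnfrsf1b* had 13 and the windows of *Tnfrsf25* 12 and 15. The content of G and C bases did not follow the same pattern. Its median was 61.2% in member windows, 62.3% in those of lower genes and 52.7% in all windows, and only *Ctla4*, with 42.0%, was AT-rich. With 8 windows of 7 genes, these values are a description and were not tested.

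**Figure D4:**
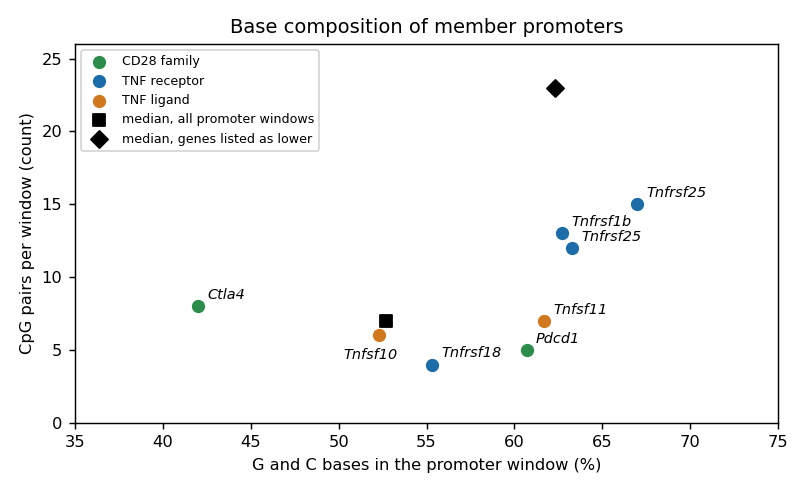
Share of G and C bases (horizontal axis, %) and number of CpG pairs (vertical axis) in the 8 promoter windows of members, colored by role. The black square marks the median of all promoter windows and the black diamond that of genes listed as lower. All member windows hold fewer CpG pairs than the median of 23 of lower genes.

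Letters of 6 kinds of motif were searched on both strands. They were AGATAA for GATA factors, CCGGAAGT for ETS factors, GGANTTTCC for NF-kB, TGANTCA for AP-1, TGTGGTT or TGTGGTC for RUNX factors and TATAAA for the TATA box. The first 5 kinds were found in 0 of 7 member genes. In all 32841 windows, GATA letters were in 11.2%, ETS letters in 3.89%, NF-kB letters in 1.25%, AP-1 letters in 7.81% and RUNX letters in 9.27%. In the 3028 windows of lower genes the shares were 5.78%, 7.89%, 1.49%, 4.66% and 6.54%, in the same order. The absence says only that these letters are not in the member windows, and no share of letters was tested. TATAAA was found in 2 of 7 genes, against 13.6% of all windows. In *Tnfsf11* it was on the opposite strand, read as TTTATA from position -32 relative to the start, and in *Ctla4* it lay 40 bases after the start. The matches did not overlap any other motif, since only this kind was found.

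Genes that act beneath these receptors were looked up in lists chosen with earlier results of these data known. Of 38 genes of TNF receptor signalling, 26 (68.4%) were listed as lower, 0 as higher and 12 in neither table. Among all annotated protein-coding genes, 13.2% were listed as lower. That background also counts genes too low in these cells to be listed, so a gap to it partly reflects being expressed at all. By average log2 CPM, which is not corrected for length, the first places belonged to feedback inhibitors and subunits of NF-kB. *Tnfaip3*, which encodes the ubiquitin-editing inhibitor A20, had 9.81, *Nfkb1* had 8.99, and *Nfkbia*, the inhibitor that holds NF-kB in the cytosol, had 8.04. *Birc3*, a ubiquitin ligase that binds TRAF2, followed with 7.31.

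Among the TRAF adaptors, *Traf1* (average log2 CPM 6.72), *Traf3* (6.71), *Traf2* and *Traf7* were listed as lower, and *Traf4*, *Traf5* and *Traf6* were in neither table. Of the death domain arm, *Casp8*, which encodes the initiator caspase, was listed as lower, and *Tradd*, *Fadd*, *Ripk1* and *Cflar* were not listed. The NF-kB subunit genes *Nfkb1*, *Nfkb2*, *Rel*, *Relb* and *Rela* were listed as lower.

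Of 21 genes of CD28 family and checkpoint signalling, 17 (81.0%) were listed as lower and 0 as higher, beside the same background of 13.2%. Among them, *Inpp5d*, which encodes the lipid phosphatase SHIP1, had an average log2 CPM of 7.83, and *Pik3r1*, which encodes a regulatory subunit of PI3K, had 7.77. The phosphatase genes *Ptpn11* and *Ptpn6*, whose products bind inhibitory receptors, were listed as lower too, and *Pik3ca*, *Akt2*, *Bcl10* and *Sh2d1a* in neither table. The shares of these lists were not tested against those of the receptors.

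Of the 13 ligands and partners of the singly named receptors, 3 (23.1%) were listed as lower, against 13.2% of all annotated protein-coding genes. These were *Icosl* with an average log2 CPM of 6.23, *Lgals9* with 6.00 and *Cd274*, which encodes PD-L1, with 5.07. Of the ligand genes of PD-1, *Cd274* was thus listed and *Pdcd1lg2* was in neither table. *Cd80* and *Cd86*, which encode the ligands of CTLA-4, *Pvr* and *Nectin2*, which encode ligands of CD226, and *Cdh1*, which encodes E-cadherin, were in neither table either. Of 15 TNF superfamily genes whose symbols lack the prefix, *Ltb* (average log2 CPM 6.94), a lymphotoxin subunit, and *Cd27* (5.11), a costimulatory receptor, were listed as lower. *Fas*, *Fasl* and *Tnf* were not listed.

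For the identity of the sorted cells, marker genes were looked up too. All 14 ILC2 markers, of which *Klrg1* is also a member, were listed as lower in tdTomato+ ILC2s, among them *Il1rl1* (ST2) with an average log2 CPM of 9.98, *Il7r* with 8.96 and *Gata3* with 8.79. The study defined ILC2s as lineage-negative cells with the proteins of *Il1rl1*, *Il7r* and *Il2ra*, so the presence of these transcripts is no independent sign. Of 33 markers of T, NK, B, myeloid, mast, epithelial and endothelial cells, 31 were in neither table. A marker at a like level in both populations would also be unlisted, so this absence does not bear on identity. The study itself reports low lineage marker expression in these samples, without a statistical difference between them. *Cd3g* (6.12), a T cell receptor component, and *Kit* (7.59), which mast cells and some ILC2s carry, were listed as lower, while *Cd3e*, *Cd3d* and the T cell receptor constant genes were not listed. A lineage-negative gate is meant to remove T cells. *Icos*, *Ctla4* and *Pdcd1* are also T cell genes, and the part of other cells in their values was not tested. Since every ILC2 marker on the list lay in the same table as the receptors, the listing does not set the receptors apart from the ILC2 program as a whole.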

How the data were processed

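RNA was measured in sorted tdTomato- and tdTomato+ lung ILC2s with a stranded kit for low input. Per the study's methods, quality was checked with FASTP, STAR placed the reads on GRCm39, featureCounts assigned them to Ensembl genes, and the authors compared both populations in edgeR. The submitters' processing notes name mm10 in place of GRCm39. Tool versions, and whether strand entered the counting, are not given in the sources used here. The 2 deposited tables (genes lower and higher in tdTomato+ ILC2s) hold fold changes, likelihood ratios, p-values and FDR of the authors' own comparison, which were not used. They also hold an average log2 CPM that the authors made over libraries, which was used. Per-library values are not among these columns, so depth is unknown and no test, replicate spread or interval could be computed, and the planned limma comparison was not run.

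Members were found by symbol, and each is named with its average log2 CPM. Of each wider list, at most the 10 genes highest in average log2 CPM have values, and 1 gene of these lists is not reported here. Members and lists were chosen with earlier results of these data known. Positions and exon lengths came from GENCODE M21 (GRCm38), joined through Ensembl identifiers, which matched 3436 of 3439 genes, and no coordinate was converted. CPM is 2 to the power of the average log2 CPM. Promoter windows were RefSeq's (GRCm38.p6), without those holding an unknown base, and the motif search was tested on simulated data. Python 3.11.15, pandas 2.3.3, numpy 2.4.6, scipy 1.17.1 and matplotlib 3.10.9 were used. Alternatives were a stricter level limit, other definitions of the family, levels per length, and other promoter windows and strands. ATAC-seq was not analysed here.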

Additional observations from a re-analysis of the deposited data

How the results depend on the processing

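The number of members listed as lower was 10. It was 12 with TNF superfamily genes that lack the prefix, 5 with an average log2 CPM over 6, and 5 with prefix genes only, and the higher table held 0 in each case. The median average log2 CPM of members, 6.17, was 6.48 with only the members over 6. Per kb it was 4.44 on the log2 scale with all exons and 4.80 with the longest transcript, the latter chosen after seeing the data. These are other units, so the shift follows from the division by length. The longest transcript also put *Tnfrsf18* in place 2 and *Icos* in place 4, against 4 and 3 with all exons. With the promoter search limited to bases before the start or to the gene's own strand, the 5 other kinds of motif were again in 0 member genes, and TATAAA was in 1 gene (14.3%) under either limit, against 28.6% without. No paired analysis was possible because the columns used are averages over libraries, and for the same reason no library could be left out and no pseudocount or other normalization tried. The listing of a gene depends on thresholds set before deposit, so a member missing from both tables has no known direction.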

Other observations

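A further list of 19 genes held 18 inhibitory or costimulatory receptor genes and the ligand gene *Pdcd1lg2*, which is also among the ligands above. Of it, 1 gene was listed as lower and 0 as higher. It was *Cd200r1*, which encodes the receptor for CD200, with an average log2 CPM of 6.15, or 21.3 CPM per kb of exon. *Tigit*, *Lag3*, *Btla*, *Cd160*, *Lair1*, *Vsir* and *Cd48* were among those in neither table. The share listed as lower, 5.26% of the list and 5.56% without the ligand gene, was under the 13.2% of all annotated protein-coding genes. The tables do not tell a gene of too low a level from one without a difference past the threshold, and the share was not tested. For *Tigit*, the study reports comparable mRNA levels in both populations.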
